A study of Hordeum vulgare with 6 samples.

Results

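The genes described here are the kinase genes among the putative direct targets of HvMADS1, a barley MADS-box transcription factor. They were taken from the study's list of 605 genes that were both bound by HvMADS1 in CUT&Tag (an assay that maps where a protein lies on the genome) and changed in the mutant. An annotation with the word kinase was found for 30 of these genes. Phosphoribulokinase, an enzyme of carbon fixation, and 1 cytokinin receptor among the genes that the study named itself were set aside, which left 28 genes of the 26933 in the deposited table. The words took in 3 genes that do not encode protein kinases, namely 2 annotated as shikimate kinase 1 and 1 as a kinase interacting (KIP1-like) protein, so that 25 are protein kinase genes. From the words of their annotations, 12 of the 25 are receptor-like kinases and 4 belong to named cytoplasmic families. The other 9 are annotated only as protein kinase superfamily protein, which places them in neither class. The list holds only genes selected for a change between these same libraries. All differences between the genotypes in the kinase genes are therefore given as a description. Where a gene is called lower or higher past a threshold, the call places it in the fit of all genes and is no independent test, since the same libraries selected it.

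The RNA-seq compared 3 WT with 3 *mads1* samples, all of the cultivar Golden Promise, at Waddington stage W7.5 of inflorescence development and under normal growth. The *mads1* plants carry CRISPR-Cas9 knockout alleles of *HvMADS1*. The labels do not say which of the study's knockout lines was used, and each sample was a pool of plants. Tissue is given as spikelet in the labels and as lemma and awn in the study's methods, and binding was mapped in other plants, which carried an HvMADS1-eGFP transgene. Levels are FPKM, the fragments of a gene scaled to its length and to the size of the library.

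The WT libraries summed to between 993575 and 994495 FPKM, and the *mads1* libraries to between 939663 and 966119 FPKM. The number of reads behind them is unknown, and steps between low values gave depths of 0.945 to 1.07 times that of WT replicate 3. Pearson's correlation of log2(FPKM + 1) across the 17996 genes tested was 0.982 to 0.994 within a genotype and 0.884 to 0.941 between genotypes. *HvSHI*, which is expressed in the awn, was at 57.5 to 63.4 FPKM in WT and 14.3 to 18.9 FPKM in *mads1*. *HvDL*, which the study detected in lemma and awn and which also acts in the carpel, was at 80.6 to 96.5 and 49.8 to 65.7 FPKM. *MADS2*, of the PISTILLATA type that marks lodicules and stamens, was at 10.8 to 13.3 and 6.45 to 7.44 FPKM. All 3 were lower in *mads1*. They belong to the same list of bound and changed genes, so their change was selected and gives no measure of tissue content. Their part in the levels below was not tested. In such tissue samples fewer cells of a type and less RNA per cell cannot be told apart.

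Protein kinases pass signals on by adding phosphate to other proteins. Receptor-like kinases sit in the plasma membrane, with an outer domain that senses a peptide, a hormone or a sugar and a kinase domain inside the cell. Their outer domains define families, such as those with leucine-rich repeats, those with lectin and S-locus domains, and the cysteine-rich receptor-like kinases. In flowering plants members of the first family control meristem size, organ shape and the response to brassinosteroids. Cytoplasmic families include kinases that read calcium, either through calcium-binding domains of their own (calcium-dependent protein kinases) or through partner proteins of the calcineurin B-like (CBL) type.

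Of the 28 genes, 23 reached 1 FPKM or more in 3 or more of the 6 libraries and entered the fit of all genes, which was made with limma on log2(FPKM + 1). A gene can meet this filter through a single genotype. HORVU.MOREX.r3.2HG0167750 met it only through *mads1*. HORVU.MOREX.r3.2HG0207630, HORVU.MOREX.r3.5HG0477460, HORVU.MOREX.r3.7HG0729620 and HORVU.MOREX.r3.2HG0206550 met it only through WT, with every *mads1* library under 1 FPKM. HORVU.MOREX.r3.3HG0222300, HORVU.MOREX.r3.3HG0288480, HORVU.MOREX.r3.3HG0225340 and HORVU.MOREX.r3.4HG0334900 also needed WT, since some but not all of their *mads1* libraries reached 1 FPKM. The entry of all these genes thus follows from the change itself, and the calls and medians below include them. The median of the cytoplasmic genes is the value of HORVU.MOREX.r3.4HG0334900. Past an adjusted p of 0.05 (Benjamini-Hochberg) and a fold change of 1.5 were 15 lower and 5 higher in *mads1*, 20 of the 23. Over all 17996 genes tested 21.1% were past this threshold, 14.5% lower and 6.6% higher. The 23 genes had been selected for such a change, so nothing is read from the contrast between these shares. The 3 WT and the 3 *mads1* values did not overlap for any of the 23, as for 55.9% of all genes tested, nor for the 5 genes under the filter. The median log2 fold change of the 23 was -0.66, against -1.17 for the 518 other genes of the study's list that were tested and 0.05 over all genes tested. This scale understates the changes of low genes. The median WT level was 4.61 FPKM for the 28 genes and 13.1 FPKM for the other listed genes. How much of the contrast between the medians comes from the scale was not tested. After quantile normalization the counts were 11 lower and 6 higher, so that the lower genes made up 64.7% of the calls instead of 75%. Over all genes tested this share moved as well, from 68.7% to 59.8%. After rescaling to equal totals the counts among the 23 were 12 and 6, and the lower share over all genes tested was 62.7%.

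**Figure D1:**
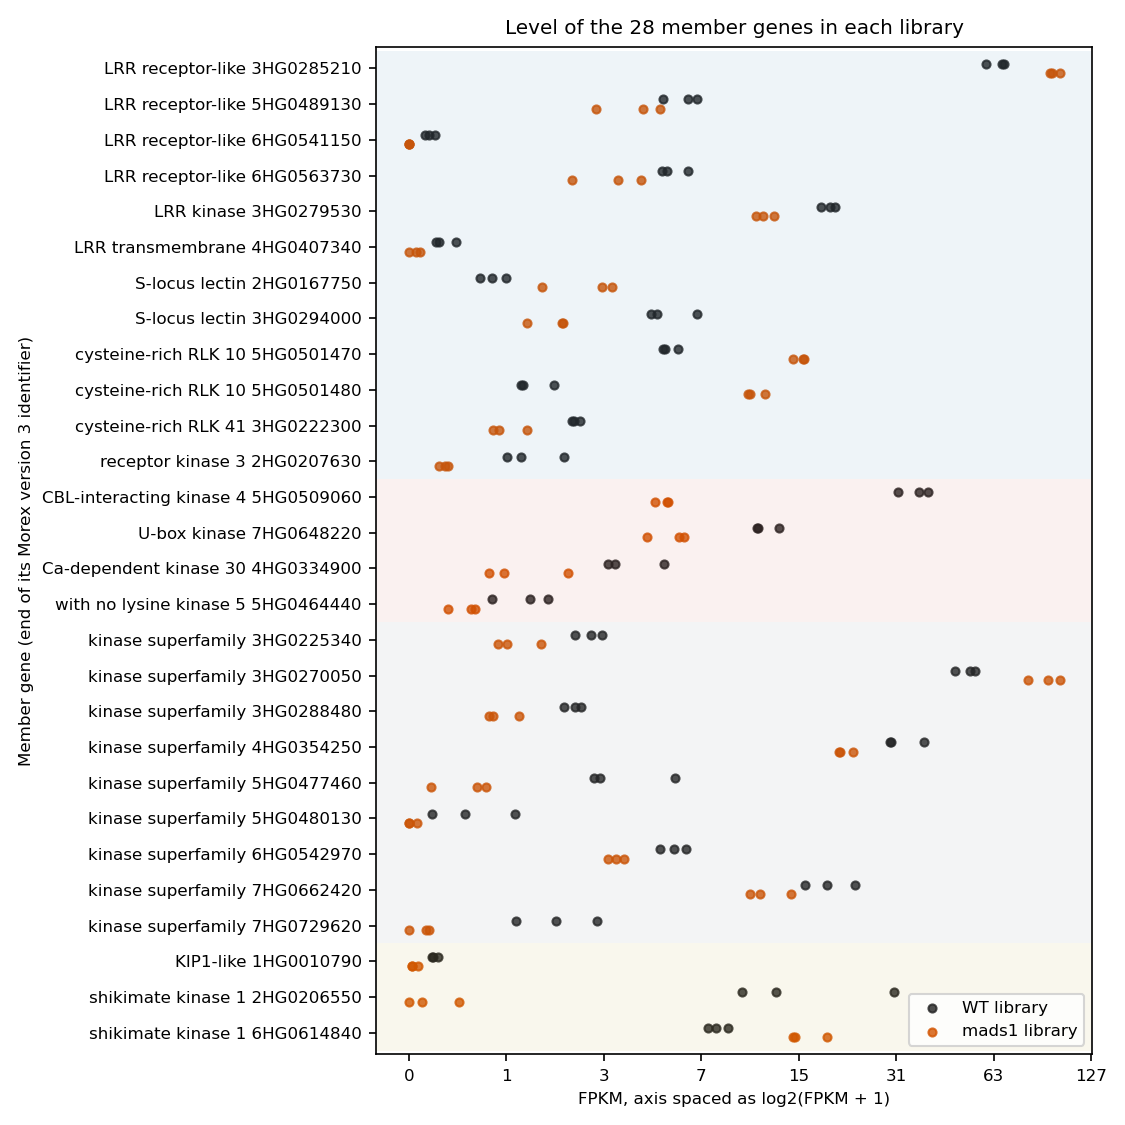
FPKM of each of the 28 genes in the 3 WT libraries (dark points) and the 3 *mads1* libraries (orange points), on an axis spaced as log2(FPKM + 1), with shading for receptor-like, cytoplasmic, superfamily and other genes from top to bottom. The values of the genotypes do not overlap in any row, and 22 of the 28 genes have the *mads1* points to the left.

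The kinase genes had lower WT levels than the other genes of the study's list. Their median WT level was 4.61 FPKM over the 28 genes, against 13.1 FPKM for the 577 other genes of the study's list and 6.2 FPKM over all 26933 genes listed. At 20 FPKM or more in WT were 4 of the 28 (14.3%), compared with 41.1% of the other genes of the study's list and 31.8% of all genes listed. These 4 were a leucine-rich receptor-like kinase, CBL-interacting protein kinase 4 and 2 superfamily genes. Under 1 FPKM in WT were 5 of the 28 (17.9%), compared with 8.15% of the other genes of the study's list and 34.0% of all genes listed.

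WT replicate 1 stood apart for the genes of this list. It had the highest of the 3 WT values in 78.5% of the 577 other listed genes and in 16 of the 28 kinase genes (57.1%), but in 34.1% of all genes tested. Without this library 12 genes were called lower and 5 higher.

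Among the 12 receptor-like kinase genes the directions were mixed. Of the 10 tested, 5 were lower and 3 higher past the threshold, and the median log2 fold change was -0.57. Lower calls were 62.5% of these calls, against 88.1% in the study's list outside the kinase genes and 68.7% over all genes tested. The receptor-like genes were selected for a change, so nothing is read from their share. After rescaling to equal totals 4 were lower and 4 higher, and after quantile normalization 3 were lower and 4 higher.

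The cysteine-rich receptor-like kinases included the largest rise of the 28 genes. Members of this family carry pairs of cysteine-rich (DUF26) domains outside the cell, and in Arabidopsis many respond to pathogens and reactive oxygen. HORVU.MOREX.r3.5HG0501480, annotated as cysteine-rich RLK 10, had WT values of 1.25, 1.80 and 1.22 FPKM, and 10.1, 10.3 and 11.5 FPKM in the mutant. Each *mads1* library was thus several times above each WT library. Its mean rose 7.48-fold and its log2 fold change was 2.27 ± 0.14 (standard error from limma, SE below). HORVU.MOREX.r3.5HG0501470, with the same annotation, stood at 5.20, 5.08 and 5.79 FPKM in the WT libraries, against 14.3, 15.6 and 15.5 FPKM in those of *mads1*. This is a 2.83-fold higher mean, with a log2 fold change of 1.35 ± 0.10 (SE), and the spread within each genotype was small beside it. The gene annotated as cysteine-rich RLK 41, HORVU.MOREX.r3.3HG0222300, went the other way. It gave 2.24, 2.20 and 2.38 FPKM across the WT libraries and 0.82, 0.90 and 1.31 FPKM across *mads1*, a log2 fold change of -0.71, and it missed the fold change limit after quantile normalization (-0.56).

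The 2 genes annotated as cysteine-rich RLK 10 follow each other in the order of the identifiers on chromosome 5H. Reads shared between such neighbouring copies may be divided between them, so the level of each is less certain than that of the pair. The next 2 genes listed after them, HORVU.MOREX.r3.5HG0501500 and HORVU.MOREX.r3.5HG0501530, are not in the study's list and carry no annotation here. They were looked at for their position, after the values of the stretch had been seen. HORVU.MOREX.r3.5HG0501500 had WT values of 4.30, 3.24 and 3.32 FPKM, and 11.0, 12.9 and 11.3 FPKM in the mutant (log2 fold change 1.47, adjusted p = 7.38e-05 from limma over all genes tested). HORVU.MOREX.r3.5HG0501530 stood at 3.63, 6.27 and 4.47 FPKM in the WT libraries, against 16.7, 16.0 and 21.3 FPKM in those of *mads1* (log2 fold change 1.73, adjusted p = 0.000183 from limma). So 4 genes in a row were higher in *mads1*. The nearest other gene tested, HORVU.MOREX.r3.5HG0501380, had a log2 fold change of 0.11, and the remaining 7 genes of the stretch shown were too low to be tested.

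**Figure D2:**
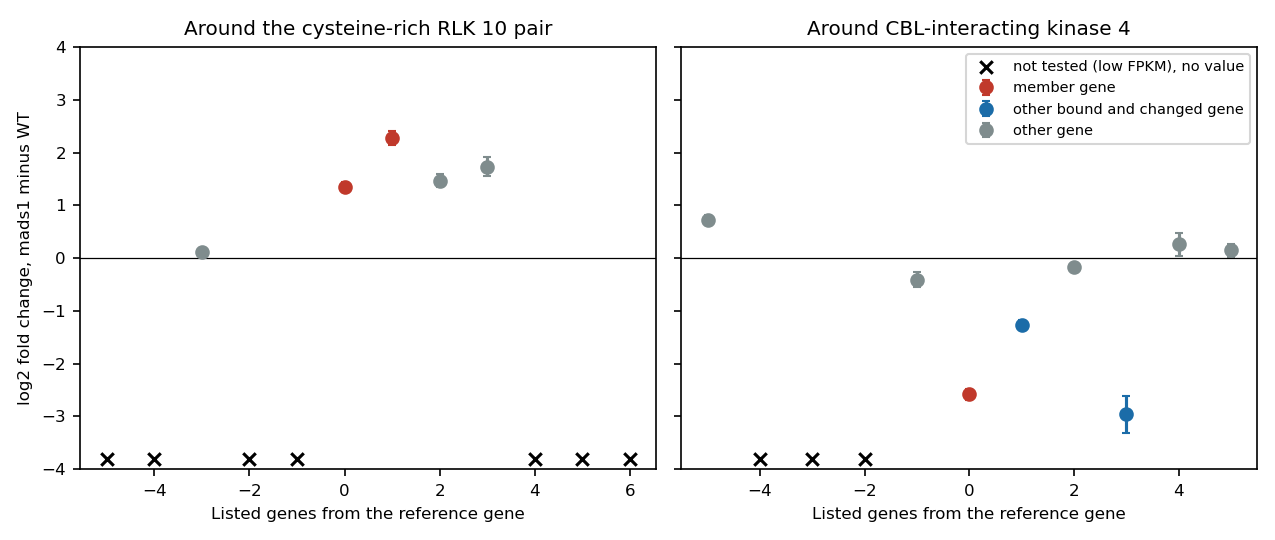
Log2 fold change (*mads1* minus WT, bars for the standard error from limma) of the genes listed around the first gene of the cysteine-rich RLK 10 pair (left) and around CBL-interacting protein kinase 4 (right), by their order in the identifiers. Red points are kinase genes of the list, blue points other bound and changed genes, grey points genes outside the list, and crosses at the foot genes too low to be tested. On the left 4 successive genes lie between 1.35 and 2.27, and on the right CBL-interacting protein kinase 4 is followed by genes at -1.26, -0.18 and -2.96.

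Of the leucine-rich repeat kinases, HORVU.MOREX.r3.3HG0285210 on chromosome 3H was the most highly expressed of the 28 genes in WT. The study's list of bound genes annotates it as a systemin receptor SR160 precursor. SR160 in tomato is the same protein as the brassinosteroid receptor BRI1. Its level was 59.5, 67.6 and 67.0 FPKM in the WT libraries and 94.6, 95.7 and 101 FPKM in the mutant. The replicates of each genotype were close together and the means, 64.7 ± 4.54 and 97.2 ± 3.62 FPKM (SD, n = 3 each), differed 1.5-fold. On the log2(FPKM + 1) scale this was 0.58 ± 0.07 (SE), just under the fold change limit, and it passed the limit at pseudocounts of 0.1 and 0.5, after rescaling to equal totals and after quantile normalization.

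Of the 5 other leucine-rich repeat kinases, 2 were lower past the threshold, 1 did not pass it and 2 were too low to be tested. Over all genes tested 14.5% were lower past it. These kinases were selected for a change, so nothing is read from their count. HORVU.MOREX.r3.3HG0279530 gave 19.0, 19.8 and 17.8 FPKM across the WT libraries and 10.8, 12.4 and 11.4 FPKM across *mads1*, a log2 fold change of -0.66 ± 0.09 (SE). HORVU.MOREX.r3.6HG0563730, at 5.54 ± 0.668 FPKM in WT and 3.28 ± 1.02 FPKM in *mads1* (SD, n = 3 each), had a log2 fold change of -0.64. It lost its call in 5 of the 6 fits that left out a library, with values between -0.69 and -0.44 in these. The call was also lost with no filter, after rescaling to equal totals (-0.58) and after quantile normalization (-0.50). HORVU.MOREX.r3.5HG0489130 had WT values of 6.75, 5.11 and 6.28 FPKM, and 4.28, 4.98 and 2.79 FPKM in the mutant, and did not pass the threshold (log2 fold change -0.51). The values of the genotypes came within 0.13 FPKM of each other in this gene. HORVU.MOREX.r3.6HG0541150 was listed at 0.20, 0.15 and 0.12 FPKM in WT and at 0 in each *mads1* library. HORVU.MOREX.r3.4HG0407340, annotated as transmembrane, stood at 0.40, 0.24 and 0.21 FPKM in the WT libraries, against 0.05, 0 and 0.08 FPKM in those of *mads1*. Both were too low to be tested.

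The S-locus lectin type of kinase, named after the Brassica receptor by which the stigma rejects its own pollen, was found in both directions. HORVU.MOREX.r3.2HG0167750 gave 0.66, 0.99 and 0.81 FPKM across the WT libraries and 2.94, 1.57 and 3.24 FPKM across *mads1*. It was low in both genotypes and higher in *mads1*, with a log2 fold change of 0.95 ± 0.21 (SE). HORVU.MOREX.r3.3HG0294000 had WT values of 6.74, 4.59 and 4.83 FPKM, and 1.97, 1.99 and 1.32 FPKM in the mutant. Its log2 fold change was -1.20 ± 0.18 (SE). The gene annotated as receptor kinase 3, HORVU.MOREX.r3.2HG0207630, fell on the same scale by 0.89, from 2.02, 1.22 and 1.01 FPKM to 0.24, 0.29 and 0.32 FPKM. Which of these genes fell furthest depended on the pseudocount, since at 0.1 the values were -1.56 for the S-locus lectin gene and -1.93 for receptor kinase 3.

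The 4 genes of cytoplasmic families all had lower levels in *mads1*. The 3 that were tested were past the threshold, with a median log2 fold change of -1.12. Of the 518 tested genes of the study's list outside the 28, 435 were lower and 59 higher past it. CBL-interacting protein kinase 4 (HORVU.MOREX.r3.5HG0509060, chromosome 5H) belongs to the kinases that CBL calcium sensors recruit and activate. It stood at 39.1, 31.3 and 36.6 FPKM in the WT libraries, against 4.75, 5.29 and 5.26 FPKM in those of *mads1*. The *mads1* libraries were nearly alike and far below every WT library. The mean was 7.0-fold higher in WT, and the log2 fold change of -2.58 ± 0.11 (SE) stayed between -2.67 and -2.52 with each library left out. Among the protein kinase genes tested this was the lowest value at pseudocounts of 1 and 0.5, but not at 0.1, where it was -2.78 and that of the superfamily gene HORVU.MOREX.r3.7HG0729620 was -3.41.

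Close to CBL-interacting protein kinase 4 in the order of the identifiers lie 2 more genes of the study's list. HORVU.MOREX.r3.5HG0509070, annotated as a PriB type single-strand DNA-binding protein, gave 124, 113 and 109 FPKM across the WT libraries and 51.5, 46.7 and 44.0 FPKM across *mads1*. *IAA12* (HORVU.MOREX.r3.5HG0509090), a repressor of auxin responses, had WT values of 22.1, 10.5 and 9.58 FPKM, and 0.99, 1.52 and 0.19 FPKM in the mutant. The gene between them, HORVU.MOREX.r3.5HG0509080, is not in the list and had a log2 fold change of -0.18 with means of 131 FPKM (WT) and 116 FPKM (*mads1*). The fall was therefore not shared by each gene of the stretch.

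The U-box kinase gene HORVU.MOREX.r3.7HG0648220 stood at 12.9, 11.0 and 10.9 FPKM in the WT libraries, against 6.05, 4.42 and 5.82 FPKM in those of *mads1*. Kinases of this type join a kinase domain to a U-box, the domain by which ubiquitin ligases bind their partners. Its log2 fold change was -0.97 ± 0.13 (SE). Calcium-dependent protein kinase 30 (HORVU.MOREX.r3.4HG0334900) gave 5.12, 3.13 and 3.34 FPKM across the WT libraries and 0.96, 2.11 and 0.77 FPKM across *mads1*. The second *mads1* library was closer to WT than the others, and the log2 fold change of -1.12 ± 0.25 (SE) ranged from -1.36 to -0.94 with a library left out. The gene annotated as with no lysine (K) kinase 5 (HORVU.MOREX.r3.5HG0464440), of a family linked to flowering time in Arabidopsis, had WT values of 1.68, 0.81 and 1.36 FPKM, and 0.60, 0.56 and 0.32 FPKM in the mutant. It was not tested because of its low level, and without the filter its log2 fold change was -0.60.

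**Figure D3:**
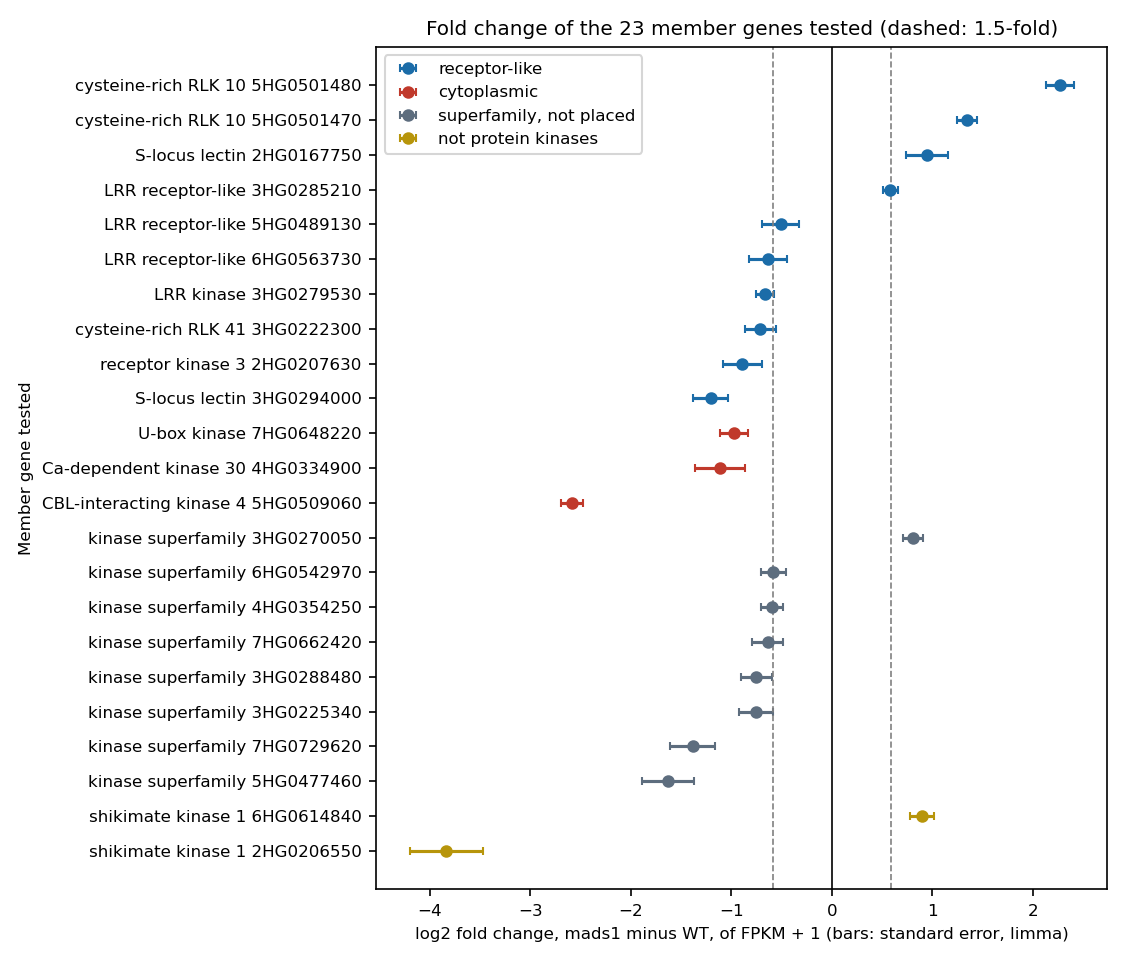
Log2 fold change on the log2(FPKM + 1) scale (*mads1* minus WT) of the 23 genes tested, with the standard error from limma as bars, by class. Dashed lines mark a fold change of 1.5. Receptor-like genes (blue) lie on both sides of 0, from -1.20 to 2.27, and the 3 cytoplasmic genes (red) lie between -2.58 and -0.97.

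Of the 9 superfamily genes, 8 had lower and 1 had higher levels in *mads1*. Past the threshold were 6 lower and 1 higher of the 8 tested. Lower were 85.7% of these calls, against 88.1% of those in the study's list outside the 28 genes. The median log2 fold change of the 8 was -0.69. HORVU.MOREX.r3.3HG0270050 was the one that was higher, at 47.7, 53.2 and 54.9 FPKM in the WT libraries against 93.5, 80.8 and 101 FPKM in the mutant. Its log2 fold change was 0.81 ± 0.10 (SE). This gene is paired in the study's list with an older identifier of chromosome 1H, while its own identifier names 3H. Such a mismatch was found for 34 of the 605 pairs (5.62%), and this was the only one among the 28 genes. Since the older identifiers are those of the bound genes, it is uncertain that the gene measured is the gene bound.

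On the log2(FPKM + 1) scale the lowest value of the class was that of HORVU.MOREX.r3.5HG0477460, which went from 5.63, 2.90 and 2.72 FPKM in WT to 0.62, 0.73 and 0.17 FPKM in *mads1* (log2 fold change -1.62, standard error 0.26). WT replicate 1 was the highest library, at about the sum of the other WT values. HORVU.MOREX.r3.7HG0729620 stood at 2.80, 1.14 and 1.84 FPKM in the WT libraries, against 0, 0.13 and 0.15 FPKM in those of *mads1* (log2 fold change -1.38). Its mean was 20.6-fold higher in WT, against 7.40-fold for HORVU.MOREX.r3.5HG0477460, and at these low levels the order turns with the pseudocount. HORVU.MOREX.r3.4HG0354250, the highest of the lower superfamily genes, gave 38.0, 29.7 and 29.8 FPKM across the WT libraries and 20.4, 20.3 and 22.5 FPKM across *mads1*. Its log2 fold change of -0.59 lay just inside the fold change limit. It missed the limit under 5 alternatives, between -0.57 and -0.48, namely rescaling to equal totals, quantile normalization and leaving out WT replicate 1, *mads1* replicate 1 or *mads1* replicate 2. HORVU.MOREX.r3.6HG0542970 lay just outside, at -0.58. HORVU.MOREX.r3.7HG0662420, at -0.64, lost its call without WT replicate 1 (-0.51), without *mads1* replicate 3 (-0.55) and after rescaling to equal totals (-0.58). The log2 fold changes of HORVU.MOREX.r3.3HG0225340 and HORVU.MOREX.r3.3HG0288480 were -0.76 and -0.75. After quantile normalization HORVU.MOREX.r3.3HG0288480 missed the fold change limit (-0.57). HORVU.MOREX.r3.5HG0480130 was under the filter. The WT libraries held 1.12, 0.18 and 0.49 FPKM of it, and the *mads1* libraries 0.06, 0 and 0 FPKM.

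The 2 genes annotated as shikimate kinase 1, a plastid enzyme on the way to the aromatic amino acids, moved apart. HORVU.MOREX.r3.2HG0206550 had WT values of 30.4, 9.68 and 12.6 FPKM, and 0, 0.43 and 0.10 FPKM in the mutant. This was the lowest value of the 23 genes tested (log2 fold change -3.83, standard error 0.37), and the WT libraries differed several-fold among themselves. HORVU.MOREX.r3.6HG0614840 stood at 7.86, 8.67 and 7.41 FPKM in the WT libraries, against 14.4, 18.5 and 14.6 FPKM in those of *mads1*, a log2 fold change of 0.90 ± 0.12 (SE). The KIP1-like gene HORVU.MOREX.r3.1HG0010790, of a family first found as partners of a pollen receptor kinase in petunia, stayed at or under 0.23 FPKM in every library.

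**Figure D4:**
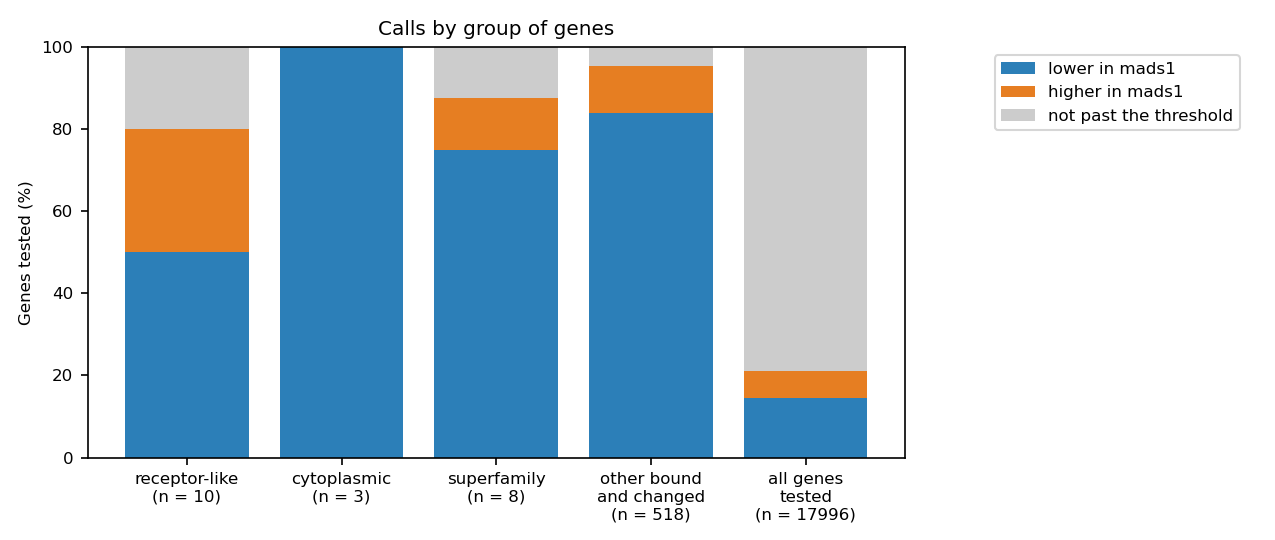
Share of the genes tested that were lower (blue), higher (orange) or not past the threshold (grey) in *mads1*, for the 10 receptor-like, 3 cytoplasmic and 8 superfamily kinase genes, the 518 other genes of the study's list and all 17996 genes. The first 4 groups were selected for a change in these libraries, and 5 of the 10 receptor-like genes and all 3 cytoplasmic genes are lower.

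Other genes of kinase signalling, 12 in all, were taken from the same list by the words of their annotation. Past the threshold 11 were lower and 1 higher. Lower calls were thus 91.7% of the calls, against 88.1% over all genes of the study's list outside the 28. The 12 too were chosen by the study for their change, so nothing is read from their direction. The words kinase or receptor kinase are missing from the annotation of 3 genes that encode kinases, and all 3 were lower. STRUBBELIG-receptor family 8 (HORVU.MOREX.r3.7HG0722360), of a leucine-rich repeat receptor family known from organ shape in Arabidopsis, gave 79.6, 55.0 and 53.1 FPKM across the WT libraries and 18.6, 22.7 and 16.9 FPKM across *mads1*. SOS3-interacting protein 1 (HORVU.MOREX.r3.5HG0464580), of the same family as CBL-interacting protein kinase 4, went from 66.6 ± 2.86 to 36.7 ± 3.62 FPKM (SD, n = 3 each). NIMA-related 6 (HORVU.MOREX.r3.1HG0074980), of a family that acts on microtubules, went from 14.4 ± 2.80 to 7.64 ± 1.14 FPKM (SD, n = 3 each).

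The 5 genes for calcium sensors, their partners and a peptide ligand were all lower. In the study's list outside the 28 genes, 88.1% of the calls were lower. Rapid alkalinization factor 1 (HORVU.MOREX.r3.3HG0253860), a secreted peptide of a family that binds receptor-like kinases, had WT values of 119, 63.5 and 77.9 FPKM, and 12.3, 15.9 and 4.73 FPKM in the mutant. The groups lay far apart, although each varied among its own libraries. A calcium-binding EF-hand gene (HORVU.MOREX.r3.4HG0391600) fell from 14.3 ± 2.79 to 0.86 ± 0.316 FPKM (SD, n = 3 each). The calmodulin-related gene HORVU.MOREX.r3.2HG0184300 had a log2 fold change of -1.75, the second EF-hand gene -0.88 and the calmodulin-binding gene -0.74. Leucine-rich repeat proteins without the word kinase numbered 4, with 3 lower and 1 higher. The highest of them in WT, HORVU.MOREX.r3.2HG0180010, stood at 87.6, 74.9 and 72.6 FPKM in the WT libraries, against 9.70, 10.6 and 14.0 FPKM in those of *mads1*.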

How the data were processed

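The authors trimmed the reads (Trimmomatic), mapped them to a barley genome, estimated FPKM with RSEM 1.3.3 and deposited these values. The aligner and the genome build are not given in the sources used here, and the identifiers are those of Morex version 3. The column totals are close to a fixed total, which FPKM need not have, but each *mads1* total is below each WT total. The values are called FPKM as the study calls them, and whether they were rescaled to a fixed total is unknown. No column was left unused.

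Samples were grouped by the genotype in their titles. log2(FPKM + 1) was fitted with limma 3.58.1 in R 4.3.3 (eBayes with a trend) for genes that reached 1 FPKM in 3 or more of the 6 libraries, with Benjamini-Hochberg adjustment over all 17996 genes and a limit of 1.5 on fold change. Fold changes on this scale understate those of low genes. No count test was made, since the values hold no counts, and absolute depth is unknown. On simulated data for *mads1* against WT with 17996 genes, the fit called 107 of 109 genes changed 4-fold, 71 of 91 changed 2-fold and 9 unchanged genes. Changes were placed only in genes with a mean above 5 FPKM on the log2 scale, and spreads were shuffled between genes. The median WT level of the 28 genes was 4.61 FPKM, so this recovery does not cover the many lower genes among them. At most 2.4% of values were equal between a pair of libraries. Each sample is a pool of plants, and p-values measure the spread between pools.

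The genes and lists were chosen with earlier results of these data known. Every receptor-like and cytoplasmic gene is named. Values in each library are given for the largest change per class and direction, for genes at 20 FPKM or more and for cytoplasmic genes, and some others were added after their values were seen. Annotations and identifier pairs are the study's. The list of bound genes was held in part, and 12 of the 28 genes were found in it. *HvMADS1* and kinase genes outside the study's list are not analysed here, nor are sequences, since no table here joined them to the identifiers. Alternatives were pseudocounts of 0.1 and 0.5, no filter and a filter at 5 FPKM, 3 other scalings, no trend, the replicate number as a block, no limit on fold change and each library left out. Leaving out the gene with unlike identifiers was added after seeing the data.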

Additional observations from a re-analysis of the deposited data

How the results depend on the processing

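No log2 fold change of the 23 genes tested turned its direction under any alternative. With the filter at 5 FPKM 7 genes were called lower, since 13 of the 28 genes were then tested, and 4 were called higher. The count of lower genes was 11 to 16 under the other alternatives that kept all libraries, and that of higher genes 4 to 6 over all of them. Leaving out 1 library gave 12 to 15 lower and 5 to 6 higher. The median log2 fold change of the receptor-like genes was 0.036 with the filter at 5 FPKM (6 genes), -0.40 with no filter (12 genes), -0.66 with a pseudocount of 0.1, -0.44 after quantile normalization, and -0.66 to -0.38 with a library left out. That of the cytoplasmic genes was -1.61 and -1.34 with pseudocounts of 0.1 and 0.5, -1.78 with the filter at 5 FPKM (2 genes), and -1.36 to -0.94 with a library left out. That of the superfamily genes was -0.92 with a pseudocount of 0.1 and -0.73 to -0.63 with a library left out. Larger values at small pseudocounts follow from how the pseudocount damps low genes, and for the other values the cause was not tested. The filter at 5 FPKM keeps a gene by the genotype in which it is higher, so its medians follow from the change itself. It kept HORVU.MOREX.r3.5HG0501480, which is below 5 FPKM in WT, and dropped HORVU.MOREX.r3.3HG0294000, and nothing is read from these medians. With the replicate number as a block, 15 genes were lower and 5 higher and the medians were -0.57, -1.12 and -0.69, as without it. Same-numbered samples share only the number, and the correlation of their deviations from the genotype means was -0.07, -0.28 and 0.20. Without the gene whose identifiers name different chromosomes, 15 were lower and 4 higher. The number of reads is unknown, so the 5 genes under the filter cannot be given a detection limit.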

Other observations

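The 28 genes carry identifiers of all 7 chromosomes, with 7 each on 3H and 5H, 4 on 6H, 3 each on 2H, 4H and 7H and 1 on 1H. Another gene of the study's list lay within 5 listed identifiers for 9 of the 28. Beside the pairs described, calcium-dependent protein kinase 30 lay 4 places from a major facilitator superfamily gene (HORVU.MOREX.r3.4HG0334860) with WT values of 227, 116 and 114 FPKM and mutant values of 16.1, 23.9 and 11.0 FPKM, and with no lysine (K) kinase 5 lay 5 places from SOS3-interacting protein 1.

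For 2 genes the study's lists disagree on the annotation. HORVU.MOREX.r3.3HG0279530 and HORVU.MOREX.r3.3HG0225340 are annotated as kinases among the bound and changed genes, and their older identifiers as expressed protein among the bound genes. In *mads1*, replicate 2 had the highest of the 3 values in 12 of the 28 kinase genes (42.9%), in 51.3% of the 577 other genes of the study's list and in 30.1% of all genes tested.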
